A study of Mus musculus with 10 samples.

Results

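The genes of 3 families of secreted signals, Wnt, Fgf and Bmp, were followed through retina maturation by the histone modifications at their transcription start sites (TSS). Members were chosen by name: every gene symbol reported here that consists of Wnt, Fgf or Bmp and a number, with an a or b where there is one. This gave 51 of the 20044 gene symbols of the deposited table, namely 19 Wnt, 22 Fgf and 10 Bmp genes, with 58 of its 25152 entries. Where a symbol had more than 1 entry, the one with the highest total of the 8 values stood for it. Retinas of mice at a late embryonic stage (E17.5) and at postnatal days 1, 7 and 15 (PN1, PN7 and PN15) were pooled by stage, and their chromatin was sequenced after immunoprecipitation for H3K4me2 or H3K27me3 (ChIP-Seq), 1 library per mark at each stage. The study describes the developmental stages as wild type and names C57BL/6j mice, and neither it nor the labels give a treatment or a transgene for these 8 libraries, while the labels name the Pde6b (rd1/rd1) strain for every sample and write the embryonic stage as E17. The labels and the methods also give the catalogue numbers of the 2 histone antibodies the other way round, and marks are given here as in the sample titles. The column of H3K27me3 at PN7 carries an added letter b and was assigned to the 1 sample of that mark and stage. With 1 library per mark and stage no spread between replicates was available, so no p-value is given and differences are described by their size and by counting intervals.

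H3K4me2 is found at active promoters and at promoters held ready for use, and H3K27me3 is set by the Polycomb repressive complex at genes kept silent. Promoters that carry both marks in 1 sample are often called bivalent and are typical of genes that control development. Wnt proteins are lipid-modified signals that bind Frizzled receptors, Fgf proteins bind receptor tyrosine kinases, and Bmp proteins bind receptor serine/threonine kinases that act through Smad proteins. All 3 families take part in the early formation of retina, pigment epithelium and lens, and in the growth and patterning of the retina.

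To show the kind of sequence the windows are centred on, 5 promoters are printed, 250 bases upstream of the RefSeq start, from 5′ to 3′ on the strand of the gene, with each CG dinucleotide in capitals. They were chosen for their marks. Wnt1 and Wnt9a had H3K27me3 above background in every stage (619 and 217 at E17.5). Wnt16 had less H3K4me2 at PN15 than at E17.5 with H3K27me3 at much the same level. Fgf9 had the most H3K4me2 of all members and no H3K27me3 above background, and Fgf7 had neither mark. Positions are on mm9, from an exact match of the RefSeq sequence (GRCm38.p6), in this order: chr15:98620038-98620287 (plus strand), chr11:59120182-59120431 (plus strand), chr6:22237977-22238226 (plus strand), chr14:58691273-58691522 (plus strand) and chr2:125860144-125860393 (plus strand).
Wnt1: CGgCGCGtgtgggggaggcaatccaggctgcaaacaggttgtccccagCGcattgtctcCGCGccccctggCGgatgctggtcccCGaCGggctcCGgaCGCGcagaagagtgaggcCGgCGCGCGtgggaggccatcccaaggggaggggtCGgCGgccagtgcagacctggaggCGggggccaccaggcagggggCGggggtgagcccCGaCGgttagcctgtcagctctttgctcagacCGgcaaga
Wnt9a: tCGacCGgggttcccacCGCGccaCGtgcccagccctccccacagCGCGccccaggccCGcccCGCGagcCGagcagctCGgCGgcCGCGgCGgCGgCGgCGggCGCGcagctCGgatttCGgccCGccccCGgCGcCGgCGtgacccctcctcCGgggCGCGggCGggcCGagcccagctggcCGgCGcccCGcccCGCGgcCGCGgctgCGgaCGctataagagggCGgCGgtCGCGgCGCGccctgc
Wnt16: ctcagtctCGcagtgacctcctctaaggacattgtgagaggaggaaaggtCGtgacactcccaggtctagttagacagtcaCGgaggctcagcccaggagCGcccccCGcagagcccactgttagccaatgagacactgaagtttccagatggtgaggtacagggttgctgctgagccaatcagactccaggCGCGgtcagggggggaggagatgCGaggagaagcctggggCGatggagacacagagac
Fgf9: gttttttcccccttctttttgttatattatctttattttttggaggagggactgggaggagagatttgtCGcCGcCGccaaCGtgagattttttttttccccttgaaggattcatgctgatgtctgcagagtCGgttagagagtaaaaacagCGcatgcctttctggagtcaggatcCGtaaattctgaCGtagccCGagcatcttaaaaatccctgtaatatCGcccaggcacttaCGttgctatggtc
Fgf7: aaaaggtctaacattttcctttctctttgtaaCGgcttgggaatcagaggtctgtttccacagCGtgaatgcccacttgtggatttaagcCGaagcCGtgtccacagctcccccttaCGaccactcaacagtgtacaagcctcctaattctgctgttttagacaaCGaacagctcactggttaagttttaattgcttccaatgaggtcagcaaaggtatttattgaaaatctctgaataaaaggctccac
These stretches held 23, 48, 9, 11 and 6 CG, in the order printed. Wnt9a had the most CG of the member windows, while Wnt10b, with more H3K27me3 (570 at E17.5), had 14. RefSeq promoters were at hand for 37 of the 51 members, 46 windows in all, and were compared with all 32851 RefSeq promoter windows of the same length, whose median number of CG was 6.0. At least 1 CG, which reads the same on both strands, was found in 92.1% of all windows, and at least 10 in 37.8% of all windows, 0.106% of 944 windows of olfactory receptor genes and 63.0% of those of the members.

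The deposited value is a normalized occupancy, the reads within 2.5 kb of the TSS relative to all mapped reads of the library, rounded to whole numbers. Background was taken from the 1044 olfactory receptor genes of the same library, which are silent in retina, and a gene was called above background when its value passed the 99th percentile of these genes. This limit lay between 33.57 and 44.14 for H3K27me3, and between 6 and 9.57 for H3K4me2 apart from PN7, where it was 1. The H3K4me2 library of PN7 stood apart from the others of its mark, with 20.1% of all symbols at 0 against 0.419 to 2.78%. Over all symbols, H3K4me2 shifted by a median log2 value of −0.42 from E17.5 to PN1, −0.50 from PN1 to PN7 and 1.0 from PN7 to PN15, against 0.13 from E17.5 to PN15. Tissue identity was checked with marker genes. H3K4me2 at the photoreceptor genes Crx and Nrl went from 20 and 35 at E17.5 to 158 and 116 at PN15, and at Pax6, a gene of progenitors and inner retinal neurons, from 137 to 44. Median H3K4me2 of 4 lens, 4 pigment epithelium and 4 endothelium markers was 5, 2 and 12 at E17.5 and 6, 1.5 and 4.5 at PN15, and the pigment epithelium marker Dct (29 and 24) and the endothelium marker Kdr (112 and 70) were the highest among these 12 genes. The part of such cells in the values below was not tested. The files give no read numbers. Since every whole number from 0 up to between 109 and 346 occurred in each library, 1 read was worth at most about 1 unit. Intervals were computed as if the values were reads, which makes them the widest that counting error allows. They leave out the spread between animals and preparations and the choice of library scaling. Ratios given with an interval are of the deposited values, neither centred nor scaled. In whole retina, a lower mark in every cell and a mark in fewer cells cannot be told apart.

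Most Wnt, Fgf and Bmp genes carried H3K27me3 in the retina. It was above background at 38 of the 51 genes at E17.5, where 17.1% of all symbols were, at 37 at PN1 (15.2% of all symbols), at 39 at PN7 (15.9%) and at 37 at PN15 (13.8%). By family, 18, 18, 19 and 18 of the 19 Wnt genes were above background at E17.5, PN1, PN7 and PN15, as were 13, 13, 14 and 13 of the 22 Fgf genes and 7, 6, 6 and 6 of the 10 Bmp genes. The median H3K27me3 of the members was 169, 179, 174 and 86 at the 4 stages, against 11, 10, 9 and 10 over all symbols. In each library the median member lay between percentile 94.0 and 95.5 of all symbols. H3K27me3 was above background in every stage at 35 members (10.9% of all symbols) and in no stage at 10 members: Bmp5, Bmp10, Bmp15, Fgf1, Fgf6, Fgf7, Fgf9, Fgf13, Fgf14 and Fgf22.

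H3K4me2 was above background at 43 of 51 members at E17.5 (72.6% of all symbols), 37 at PN1 (69.0%), 42 at PN7 (72.1%) and 42 at PN15 (68.3%), or 72.5 to 84.3% of the members. Their median H3K4me2 was 34, 22, 31 and 22 at the 4 stages, against 41, 27, 24 and 42 over all symbols. Both marks were above background at 35 members at E17.5 (15.6% of all symbols), 30 at PN1 (12.9%), 35 at PN7 (14.6%) and 33 at PN15 (10.9%). In all 4 stages both marks were found at 29 members (8.09% of all symbols), H3K4me2 alone at Fgf9, Fgf13 and Fgf14, H3K27me3 alone at Fgf21 and Wnt8b, and neither mark at Bmp5 and Fgf7. With a fixed limit of 30 in every library in place of the olfactory receptor genes, H3K4me2 was above it at 28, 14, 26 and 17 members in order of stage (58.9, 46.0, 40.8 and 56.3% of all symbols), and both marks at 24, 11, 21 and 13 (10.6, 6.88, 8.91 and 7.7%).

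**Figure D1:**
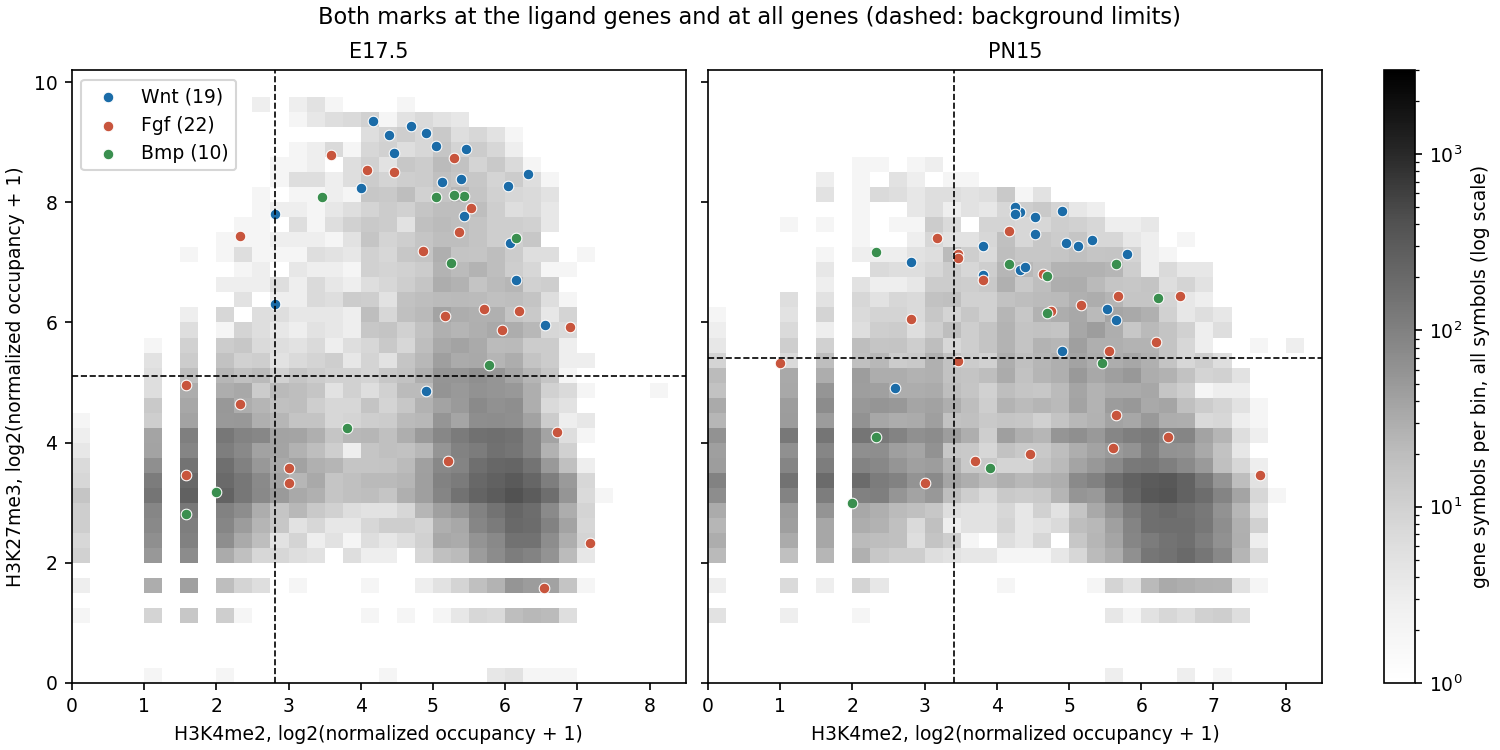
H3K4me2 (x axis) and H3K27me3 (y axis) at E17.5 and PN15 on the log2(normalized occupancy + 1) scale, with all 20044 symbols as grey bins on a log scale and the 51 members as coloured points, dashed lines being the background limits. Of the members, 35 at E17.5 and 33 at PN15 lie in the upper right field, above both limits, where 15.6% and 10.9% of all symbols lie.

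Every Wnt gene had H3K27me3 above background in at least 1 stage, as did 20.1% of all symbols. Wnt genes lie partly in pairs that arose from old duplications, and the 8 genes in such pairs (Wnt1 with Wnt10b, Wnt6 with Wnt10a, Wnt3 with Wnt9b, Wnt3a with Wnt9a) were at a median of 523.5 in H3K27me3 at E17.5 and 195.5 at PN15, while the 11 single genes had 224 and 120. In what follows, 4 values in a row are those of E17.5, PN1, PN7 and PN15. Wnt1 (mm9 chromosome 15, 98620288 to 98624268, plus strand), the founding member, which acts in the midbrain, had H3K27me3 values of 619, 775, 438 and 229 and H3K4me2 values of 25, 24, 14 and 19. Wnt3a (chromosome 11, 59061535 to 59104254, minus strand), which keeps stem and progenitor cells dividing, was at 654, 675, 469 and 231 in H3K27me3 and at 17, 9, 20 and 29 in H3K4me2. Among all symbols, Wnt3a held rank 47 and Wnt1 rank 61 in H3K27me3 at E17.5, and ranks 144 and 149 at PN15. For both genes the PN15 value was the lowest of the 4, with a ratio of PN15 to E17.5 of 0.370 for Wnt1 (95% counting interval 0.317 to 0.431) and 0.353 for Wnt3a (0.303 to 0.411). With the libraries scaled to the same sum, the changes were −0.9 and −0.97 on the log2 scale, each less than 2-fold.

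Among the paired genes, Wnt10a, known from teeth and skin appendages, had H3K27me3 values of 559, 670, 282 and 154, with H3K4me2 at 20, 23, 15 and 13. Wnt9a, known from joints and the skeleton, had 217, 282, 200 and 65 for H3K27me3, and 42, 24, 61 and 49 for H3K4me2. These 2 genes had the lowest centred H3K27me3 changes of the family, −1.85 and −1.72 on the log2 scale. The other paired genes, Wnt3, Wnt6, Wnt9b and Wnt10b, lay between 452 and 570 at E17.5 and between 160 and 241 at PN15.

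Wnt5a did the opposite. This gene, whose protein directs cell polarity and axon growth mostly without β-catenin, lies on chromosome 14 (29317936 to 29340633, plus strand), and its H3K27me3 was 61, 112, 174 and 140. The ratio of PN15 to E17.5 was 2.30 (1.69 to 3.15), and with the libraries scaled to the same sum the change was 1.72 on the log2 scale. Its H3K4me2, the largest sum of the family, was 93, 66, 112 and 55. Wnt5b, its closest relative, lay around the background limit with 28, 43, 42 and 45 for H3K27me3, and 29, 22, 37 and 29 for H3K4me2.

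The H3K4me2 of 2 of the 19 Wnt genes was at least 2-fold lower at PN15 than at E17.5, against 12.8% of all symbols. Wnt16, known from bone, had 70, 47, 46 and 13 (ratio 0.186, interval 0.0942 to 0.339), while its H3K27me3 was 103, 124, 103 and 110. Wnt7b, which acts in vessel regression of the eye and in axon growth, had 79, 41, 41 and 18 for H3K4me2 (ratio 0.228, 0.128 to 0.384) and 356, 413, 354 and 222 for H3K27me3. Its value depends on the entry, since the other 2 of its 3 entries had H3K4me2 values of 57 and 50 at E17.5 and of 40 and 38 at PN15, less than 2-fold lower. Wnt2, expressed in lung and vessels, had the second largest H3K4me2 sum of the family, with 66, 39, 48 and 45, and H3K27me3 of 160, 176, 130 and 74. Of the remaining single genes, Wnt2b, Wnt4, Wnt7a and Wnt11 lay between 300 and 335 in H3K27me3 at E17.5 and between 116 and 165 at PN15. Wnt8a and Wnt8b, early patterning genes, had H3K4me2 of at most 8 in every library, and H3K27me3 of 78, 76, 50 and 29 at Wnt8a and 224, 239, 210 and 127 at Wnt8b.

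**Figure D2:**
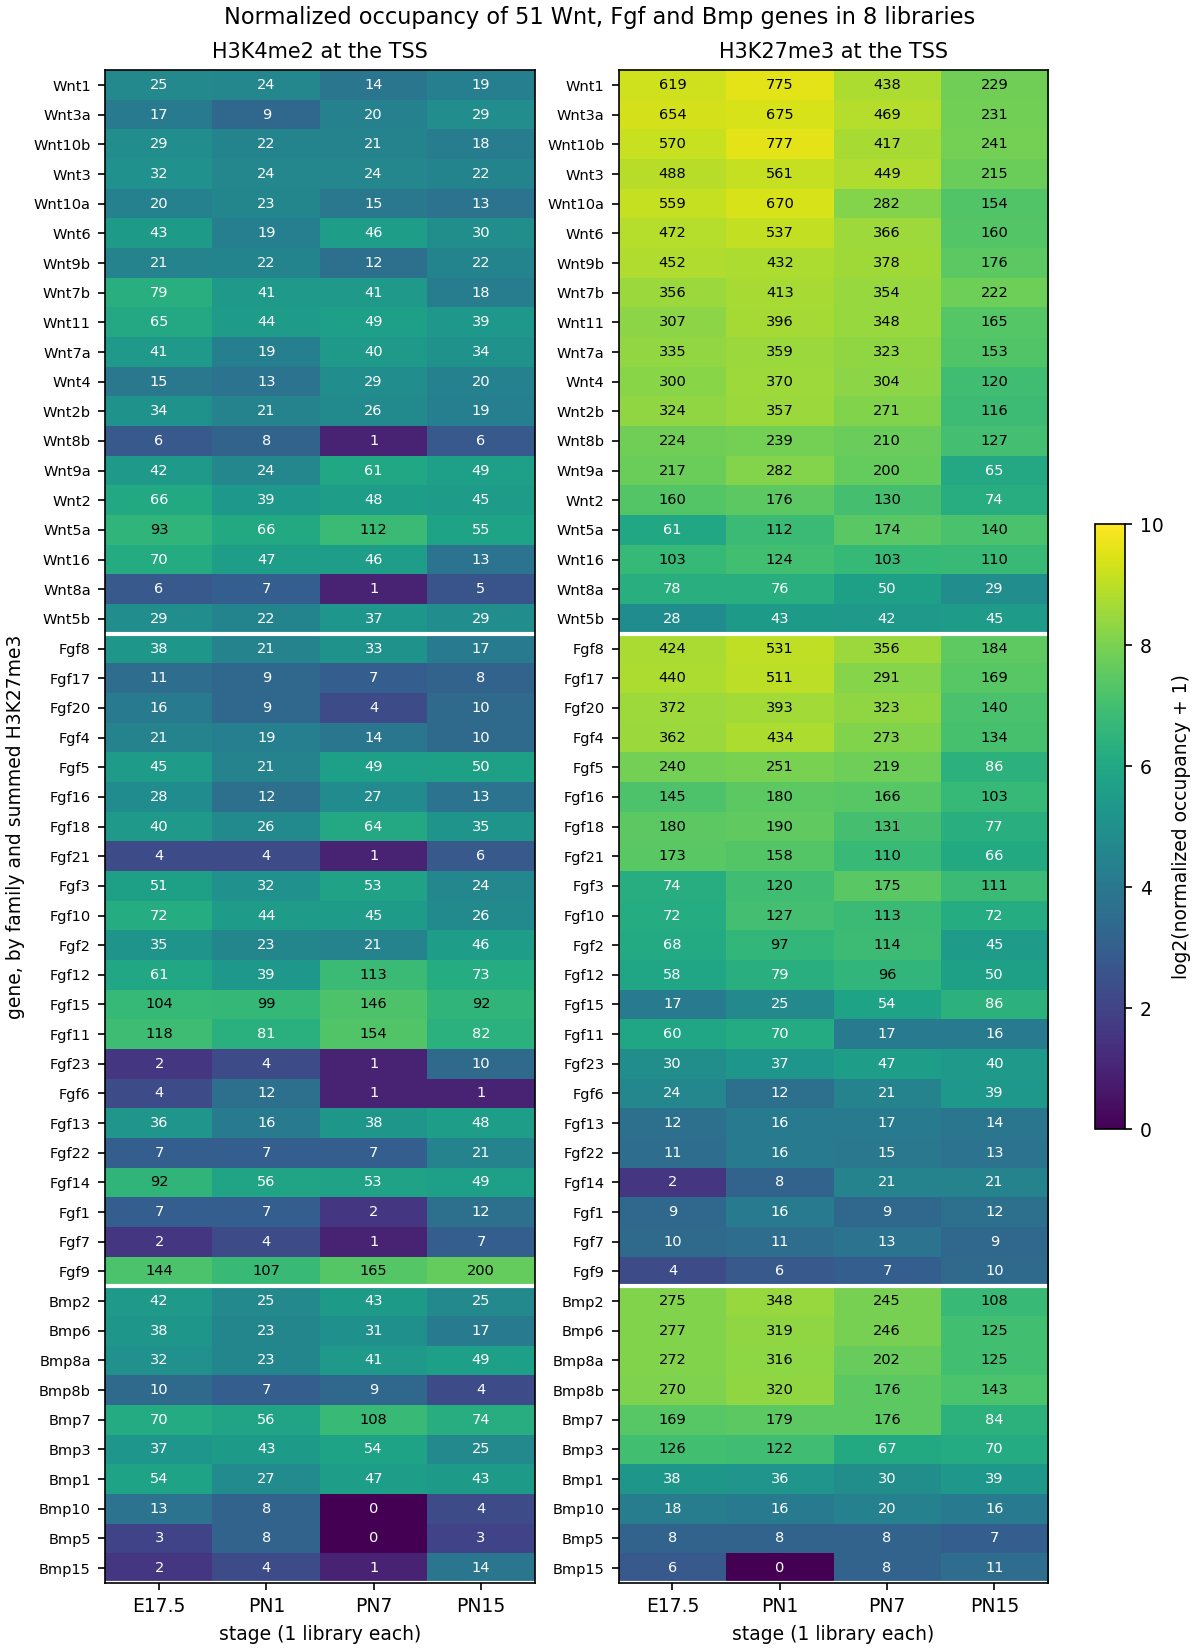
Normalized occupancy of H3K4me2 and H3K27me3 at the 51 members (rows, by family and by summed H3K27me3) in the 4 libraries of each mark, printed in each cell and coloured on the log2(value + 1) scale. H3K27me3 reaches 777 at Wnt10b at PN1, and no member is above 241 at PN15.

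H3K27me3 at the Fgf genes ranged from 2 to 440 at E17.5 with a median of 64, against 28 to 654 and a median of 324 for the Wnt genes. Subfamilies that share sequence and receptors are taken in turn. The Fgf8 subfamily, which patterns midbrain and the early eye, had the most H3K27me3. Fgf8 had 424, 531, 356 and 184, identical in its 4 entries, with H3K4me2 of 38, 21, 33 and 17. Fgf17 had 440, 511, 291 and 169 for H3K27me3 and only 11, 9, 7 and 8 for H3K4me2, and Fgf18 had 180 at E17.5 and 77 at PN15 for H3K27me3. In the Fgf4 subfamily, Fgf4, a signal of the early embryo and the limb, had 362, 434, 273 and 134 for H3K27me3. Fgf5, which ends the growth phase of hair, had 240, 251, 219 and 86 with H3K4me2 of 45, 21, 49 and 50. Fgf6, a gene of muscle, was apart from these relatives, with H3K27me3 of 24, 12, 21 and 39 and H3K4me2 of 4, 12, 1 and 1.

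The Fgf9 subfamily split by mark. Fgf9 (chromosome 14, 58689384 to 58731174, plus strand), which keeps the border of neural retina and pigment epithelium, had 144, 107, 165 and 200 for H3K4me2, the highest member value in each of the 4 libraries, and rank 21 among all symbols at E17.5 and rank 28 at PN15. Its H3K27me3 was 4, 6, 7 and 10. Fgf20 and Fgf16, from the same subfamily, had H3K27me3 of 372 and 145 at E17.5 and of 140 and 103 at PN15. Fgf9 was thus the member with the most H3K4me2 and, after Fgf14, the least H3K27me3 at E17.5.

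The intracellular Fgf genes (Fgf11 to Fgf14), whose proteins are not secreted and bind sodium channels in neurons, had a median H3K4me2 of 76.5 at E17.5 and 61 at PN15, and of 35 and 18.5 for H3K27me3. Fgf11 (chromosome 11, 69609570 to 69615359, minus strand) carried H3K4me2 of 118, 81, 154 and 82. The level of H3K27me3 went from 60 and 70 at E17.5 and PN1 to 17 and 16 at PN7 and PN15, from above to below background, with a ratio of PN15 to E17.5 of 0.267 (0.143 to 0.469). The start of Tmem102 lies 3767 bases from that of Fgf11, so their windows overlap. Fgf14 had H3K4me2 of 92, 56, 53 and 49 and H3K27me3 of 2, 8, 21 and 21, and its other entry was at 47, 39, 31 and 43 in H3K4me2 and at 24, 34, 28 and 24 in H3K27me3. All 8 of these H3K27me3 values were under the background limits. Fgf12 was at 61, 39, 113 and 73 in H3K4me2 and at 58, 79, 96 and 50 in H3K27me3, above background in each stage, while its other entry had 25, 30, 105 and 31 and was above background at PN7 alone. Fgf13 had H3K4me2 of 36, 16, 38 and 48, and H3K27me3 between 12 and 17.

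The endocrine Fgf genes act at a distance with Klotho proteins, and Fgf15 had the largest H3K27me3 change among them. Fgf15 (chromosome 7, 152082437 to 152086858, plus strand), a gene of retinal progenitors in the embryo and later of the intestine, had H3K27me3 of 17, 25, 54 and 86 and passed the background limit at PN7 and PN15. The ratio of PN15 to E17.5 was 5.06 (2.98 to 9.08). H3K4me2 at Fgf15 was 104, 99, 146 and 92, with a ratio of 0.885 (0.661 to 1.18). Fgf21, a liver hormone, had H3K27me3 of 173, 158, 110 and 66 without H3K4me2 above background (4, 4, 1 and 6), and Fgf23, a bone hormone, had 30, 37, 47 and 40 for H3K27me3 and 2, 4, 1 and 10 for H3K4me2. The start of Fut1 lies 2116 bases from that of Fgf21.

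In the Fgf7 subfamily, Fgf10, a mesenchymal signal of lung and limb budding, had 72, 127, 113 and 72 for H3K27me3, equal at both ends, and 72, 44, 45 and 26 for H3K4me2 (ratio of PN15 to E17.5 0.361, interval 0.221 to 0.573). Fgf3, a signal of the inner ear, had 74, 120, 175 and 111 for H3K27me3. Fgf22, which organises synapses, had 7, 7, 7 and 21 for H3K4me2 and at most 16 for H3K27me3, and Fgf7, a growth factor for epithelia, stayed at or under 7 in H3K4me2 and 13 in H3K27me3. In the Fgf1 subfamily Fgf2 had 68, 97, 114 and 45 for H3K27me3, and Fgf1 had 9, 16, 9 and 12.

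Among the Bmp genes the subfamilies around Bmp2 and Bmp5 to Bmp8 held most of the H3K27me3, with a median over 6 genes of 271 at E17.5 and 116.5 at PN15. Bmp2, a signal of bone and heart, had 275, 348, 245 and 108, with H3K4me2 of 42, 25, 43 and 25. Bmp6, which controls iron balance, had 277, 319, 246 and 125 with H3K4me2 of 38, 23, 31 and 17. Bmp7 (chromosome 2, 172693513 to 172765822, minus strand), needed for the formation of the eye, had less H3K27me3 (169, 179, 176 and 84) and the most H3K4me2 of the family (70, 56, 108 and 74). Bmp5 had neither mark above background, with H3K27me3 of 8, 8, 8 and 7. Bmp8b had 270, 320, 176 and 143 for H3K27me3 and 10, 7, 9 and 4 for H3K4me2, and Bmp8a had 272, 316, 202 and 125 for H3K27me3. Bmp8a and Bmp8b are close copies of each other and reads with several positions had been removed, so their values are uncertain.

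The other Bmp ligands had little of either mark apart from Bmp3, an inhibitor of bone growth, with H3K27me3 of 126, 122, 67 and 70. Bmp10, a heart gene, was at 18, 16, 20 and 16 in H3K27me3 and at 13, 8, 0 and 4 in H3K4me2, and Bmp15, an oocyte gene, at 6, 0, 8 and 11 and at 2, 4, 1 and 14. Bmp1 shares the name but is a metalloprotease that cleaves procollagen and Bmp antagonists, and it differed from the ligands with much H3K27me3: its values of 38, 36, 30 and 39 lay around the background limit, with H3K4me2 of 54, 27, 47 and 43. The start of Sftpc lies 3821 bases from that of Bmp1.

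In the deposited values, H3K27me3 at most marked members was highest at PN1 and lowest at PN15. Of the 41 members above background in at least 1 stage, 29 had their highest value at PN1, as did 54.5% of all 4024 symbols above background in at least 1 stage, and 33 had their lowest at PN15 (68.3% of the 4024), ties included. The summed H3K27me3 of all 25152 entries went the same way, from 854731 and 980808 at E17.5 and PN1 to 790454 and 590366 at PN7 and PN15. With the libraries scaled to the same sum, 13 of the 41 were highest at PN1 (24.5% of the 4024) and 28 lowest at PN15 (46.6%). Changes between stages were taken as log2 ratios with a pseudocount of 1, centred on the median of all symbols, and a change of at least 2-fold was counted. From E17.5 to PN1, 1 member was higher (Fgf14, 2 and 8; 5.77% of all symbols) and 1 lower (Bmp15, 6 and 0; 8.27%). From PN1 to PN7, 3 were higher (Fgf14, Fgf15 and Bmp15; 8.44% of all symbols) and 2 lower (Wnt10a and Fgf11; 9.33%). From PN7 to PN15, none of the 51 was higher (15% of all symbols) and 15 were lower (9.7%). The 15 were 9 Wnt, 4 Fgf and 2 Bmp genes, and the members' median change in this step was −0.73. Among symbols above background in at least 1 stage, it was −0.8 for the 41 members and −0.62 for all 4024 symbols. With the libraries scaled to the same sum instead of centred, the members higher and lower were 1 (2.67% of all symbols) and 2 (10.3%) from E17.5 to PN1, 4 (10.6%) and 1 (7.48%) from PN1 to PN7, and 2 (24.8%) and 1 (2.67%) from PN7 to PN15. The median change of all 51 members in the last step was then −0.31.

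From E17.5 to PN15, H3K27me3 was at least 2-fold lower at 25 members (16.1% of all symbols) and at least 2-fold higher at 4 (12.2%). The 25 were 13 Wnt genes, all 8 of the paired loci among them, 8 Fgf genes (Fgf4, Fgf5, Fgf8, Fgf11, Fgf17, Fgf18, Fgf20 and Fgf21) and 4 Bmp genes (Bmp2, Bmp6, Bmp7 and Bmp8a). The 4 were Wnt5a, Fgf15, Fgf14 and Fgf9, of which Fgf14 and Fgf9 were under the background limits throughout. With the mean over entries 3 members were higher, without Fgf14, and with a pseudocount of 5 also 3, without Fgf9. The median change was −0.91 over all members, −1.24 for Wnt, −0.18 for Fgf and −0.88 for Bmp genes. H3K27me3 was above background in at least 1 stage at all 19 Wnt, 15 of 22 Fgf and 7 of 10 Bmp genes. The family medians include the other genes, here and on the same-sum scale. Of the genes with the mark, 13 of 19 Wnt, 8 of 15 Fgf and 4 of 7 Bmp genes were lower (37.3% of all such symbols). On the same-sum scale 4 members were lower (Wnt6, Wnt9a, Wnt10a and Fgf11; 5.68% of all symbols) and 8 higher (25.8%), among them Wnt5a, Fgf15, Fgf14 and Fgf9, and the median change was −0.38 over all members, −0.71 for Wnt, 0.33 for Fgf and −0.34 for Bmp genes.

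Genes with much H3K27me3 had lower values at PN15 across the genome, so the members were also set beside those. Among symbols above background in at least 1 stage, 25 of 41 members were at least 2-fold lower against 37.3% of the 4024 symbols, and 2 members were higher, Wnt5a and Fgf15, against 9.79%. The median change was −1.14 for these members and −0.69 for these symbols. This filter used the values that were compared: Fgf15 passed it only at PN7 and PN15, and Fgf11 only at E17.5 and PN1. When only symbols with a mean H3K27me3 of at least 100 at E17.5 and PN15 were taken, a limit set after the values were seen, 23 of 30 members (76.7%) and 62.3% of 1357 symbols were lower, with medians of −1.23 and −1.14. At this level the members' median was thus close to that of all genes with as much H3K27me3. On the same-sum scale 4 of the 41 members were lower, against 14.4% of the symbols above background, and 4 higher, against 16.0%, with medians of −0.61 and −0.17. Across members the order of levels was largely kept, with a Spearman correlation of 0.918 and a Pearson correlation of 0.908 between E17.5 and PN15 over 51 genes, which share the 2 libraries.

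**Figure D3:**
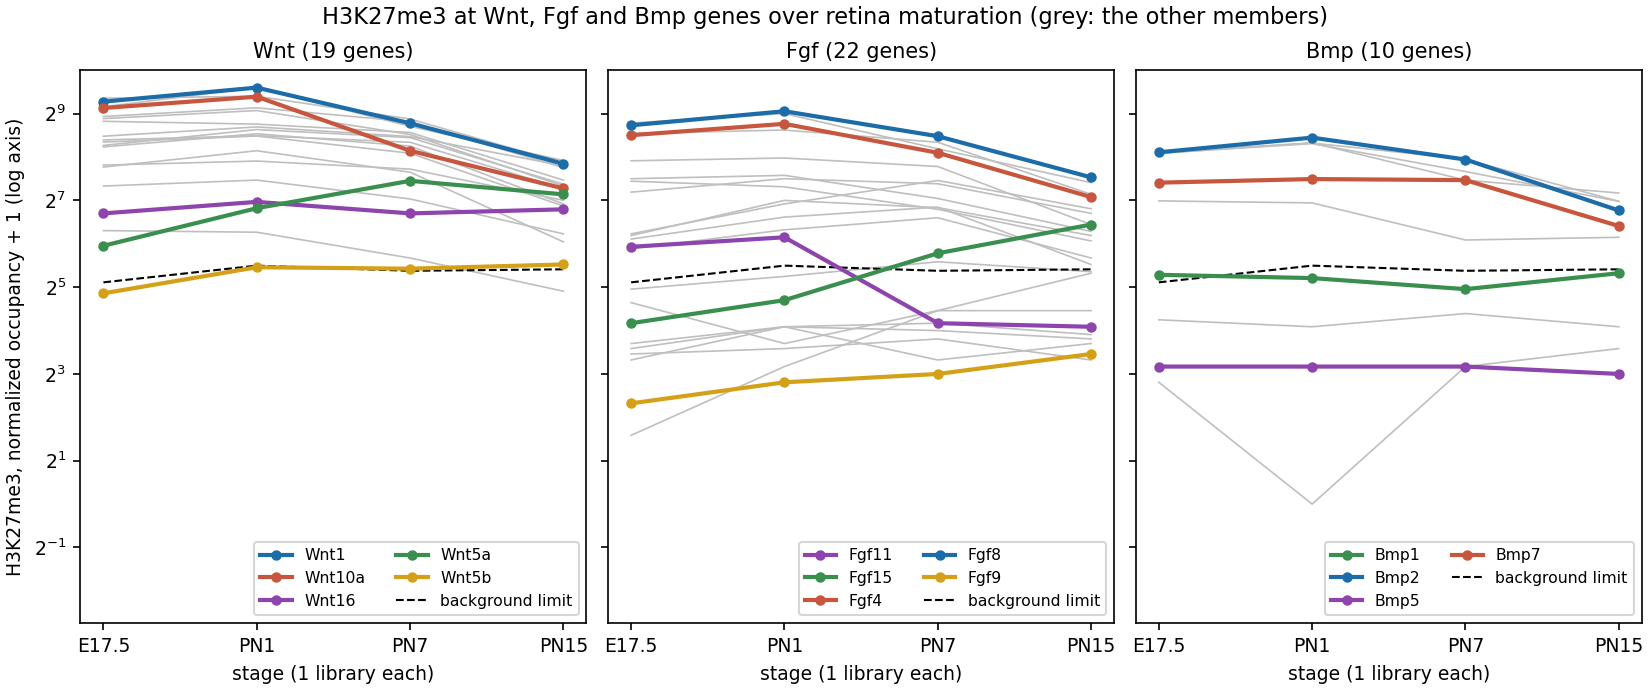
H3K27me3 (normalized occupancy + 1, log axis) at the 4 stages for the Wnt, Fgf and Bmp genes, with 14 genes coloured, the others grey and the background limit dashed, 1 library per stage and no error bars. Most lines peak at PN1 and end lowest at PN15, while Wnt5a (61 to 140) and Fgf15 (17 to 86) end higher than they began and Fgf11 (60 to 16) drops below the limit.

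From E17.5 to PN15 H3K4me2 was at least 2-fold lower at 12 members (12.8% of all symbols) and at least 2-fold higher at 4 (5.17%). The 12 were Wnt16, Wnt7b, Fgf3, Fgf4, Fgf6, Fgf8, Fgf10, Fgf14, Fgf16, Bmp6, Bmp8b and Bmp10. The calls of Wnt7b and Fgf14 each rest on 1 entry, out of 3 and 2, and 11 members were lower with the mean over entries, Fgf14 no longer among them. The 4 higher ones, Fgf7, Fgf22, Fgf23 and Bmp15, had at most 7 at E17.5 and 21 at PN15. The median change of the members was −0.51, and with the libraries scaled to the same sum it was −0.58. With a pseudocount of 5, which weighs low values less, 7 members were lower (5.82% of all symbols) and 1 higher (1.95%). H3K4me2 and H3K27me3 at the same members were not ordered alike, with Spearman correlations of −0.0128 at E17.5 and −0.0394 at PN15 over 51 genes of the same tissue pools. The Pearson correlations were −0.202 and −0.227.

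Members that lie close together in the genome did not always change in the same direction. Within 100 kb of each other lay 7 pairs of neighbouring starts. In the 4 Wnt pairs, 11.7 to 24.3 kb apart, H3K27me3 was at least 2-fold lower at PN15 than at E17.5 at both genes (at Wnt6, Wnt10a and Wnt9a of these 8 with the libraries scaled to the same sum). On chromosome 7 the starts of Fgf3, Fgf4 and Fgf15 follow each other on the plus strand at distances of 22.8 and 35.1 kb, and the changes from E17.5 to PN15 were 0.58, −1.43 and 2.27. Thus Fgf4, with 362 and 134, lay between genes whose H3K27me3 went from 74 to 111 and from 17 to 86. On chromosome 6 Fgf6 and Fgf23, 57.4 kb apart, had changes of 0.68 and 0.40 at low levels.

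The windows of the members were rich in CpG dinucleotides. Proteins that bind unmethylated CpG are known to bring in enzymes of H3K4 methylation, and CpG islands are also typical sites of the Polycomb complex. Counted within 2.5 kb of the start in mm9, the median was 157 CpG per window for the members, 102 for all 19473 symbols with a position and 21 for olfactory receptor genes. Members with H3K27me3 in at least 1 stage had a median of 174 (n = 41) and those with none 81.5 (n = 10). Of 29 members with 150 or more CpG, 27 had H3K27me3 (33.8% of all symbols with as many), of 7 with at least 100 and under 150 all did (22.4%), and of 15 with fewer than 100, 7 did (13.0%). In each of these bands the share was thus above that of all symbols. Across the 51 members the Spearman correlation of the CpG number was 0.418 with the highest H3K27me3 (Pearson 0.365) and 0.619 with H3K4me2 at E17.5 (Pearson 0.530), against 0.104 and 0.744 over all symbols.

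Single genes departed from this order. Fgf9 had the most CpG of all members, 263, and H3K27me3 of at most 10. With the outer end of the annotated gene as the start, its number was 190 and Wnt7b had the most, 273. Fgf17 had only 82 CpG and H3K27me3 up to 511, and Wnt10a had 105 CpG and H3K27me3 up to 670. A further 2 members with 150 or more CpG but a highest H3K27me3 under 40 were Fgf13 (157 CpG, at most 17) and Bmp1 (176 CpG, at most 39), of which Bmp1 was above background at E17.5.

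**Figure D4:**
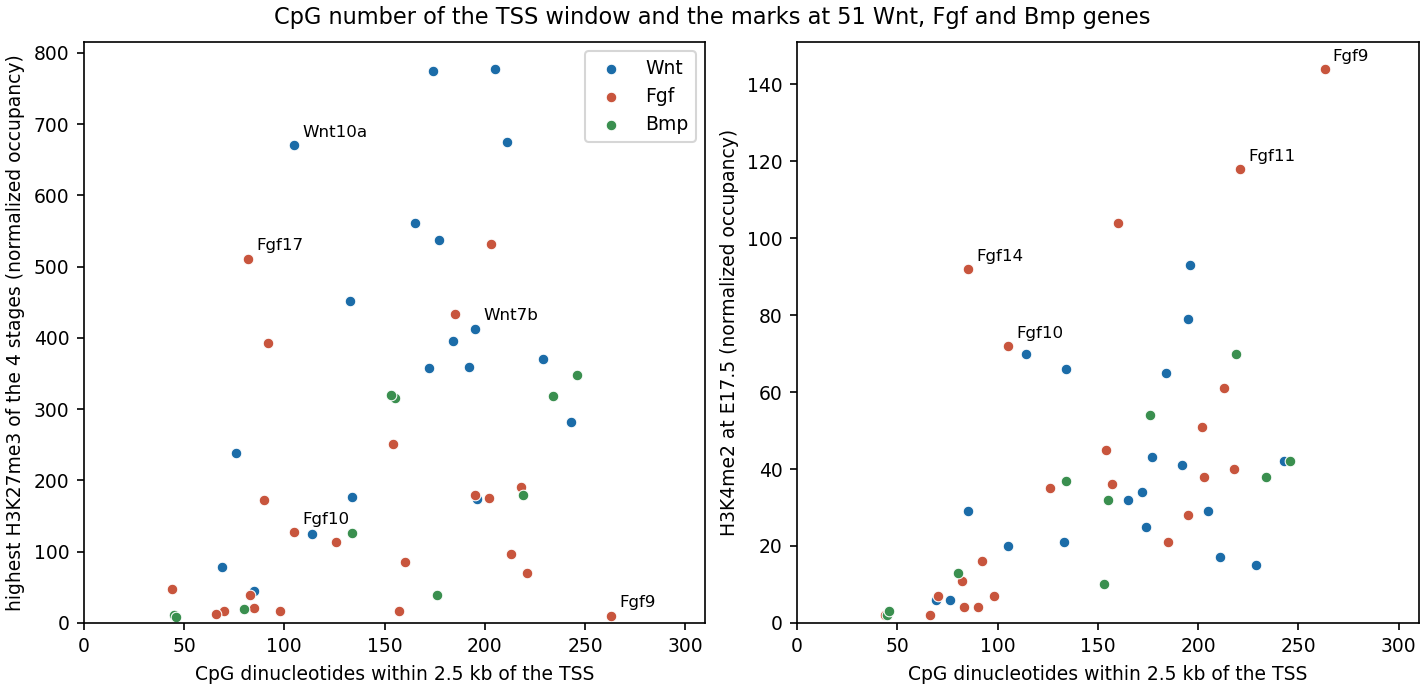
Number of CpG dinucleotides within 2.5 kb of the start (x axis) against the highest H3K27me3 of the 4 stages (left) and H3K4me2 at E17.5 (right) for the 51 members, in normalized occupancy. Of the 15 members with fewer than 100 CpG, 7 had H3K27me3 above background, and Fgf9, with 263 CpG, has the most H3K4me2 (144) and almost no H3K27me3.

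Other genes of the 3 pathways were described from 10 lists with 109 measured genes. H3K27me3 was above background in at least 1 stage at 48 of them, against 41 of the 51 members and 20.1% of all symbols. The median of the 109 genes was 16 and 22 in H3K27me3 at E17.5 and PN15, and 63 and 61 in H3K4me2. By list, 9 of 15 Wnt receptors and co-receptors, 9 of 13 Wnt antagonists, 8 of 10 Wnt nuclear factors and feedback targets, 6 of 7 Fgf receptors and co-receptors, 7 of 13 Bmp antagonists and 5 of 11 Fgf feedback genes had it. The other lists had it at 2 of 7 Bmp receptors, 1 of 6 Smad and related genes, 1 of 12 genes of Wnt secretion and transduction and 0 of 15 genes of Fgf signal transduction. From E17.5 to PN15, H3K27me3 was at least 2-fold higher at 22 of the 109 genes (12.2% of all symbols) and lower at 24 (16.1%). The median change was −0.25 against −0.91 for the members. These sets differ in how many genes had the mark, 48 of 109 and 41 of 51, and genes without it are in both medians. On the same-sum scale the counts were 31 (25.8% of all symbols) and 9 (5.68%), and the median change was 0.28, the other way. With a pseudocount of 5 the counts were 15 (5.45%) and 14 (9.57%).

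For each list the gene with the largest centred H3K27me3 change is given, a choice that depends on the scaling. Wls, which carries Wnt proteins to the cell surface, had 374, 502, 311 and 120, highest at PN1 and lowest at PN15. Sfrp2, a secreted Wnt antagonist of the optic cup, had 4, 18, 80 and 82, Nkd1, a feedback inhibitor of Wnt signalling, 6, 17, 23 and 61, Acvr1, a Bmp receptor kinase, 8, 9, 52 and 70, and Fgfrl1, an Fgf receptor without a kinase domain, 22, 29, 47 and 73. These 4 genes went from under to over the background limit, as Fgf15 did. The other 5 stayed under it in every library: Ryk, a Wnt receptor, with 13 and 3 at E17.5 and PN15, Frs2, an adaptor of Fgf receptors, with 30 and 5, Spred1, an inhibitor of Ras signalling, with 3 and 26, Cer1, a secreted antagonist, with 2 and 14, and Smad4, the shared Smad, with 10 and 4.

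In H3K4me2, 12 of the 109 pathway genes were at least 2-fold lower at PN15 than at E17.5 (12.8% of all symbols) and 0 were higher (5.17%). The largest changes of the lists were those of Tcf7l2, a transcription factor of Wnt signalling, with 63, 37, 16 and 9, Sost, an antagonist known from bone, with 21, 13, 4 and 4, Dkk2, a Wnt antagonist of the eye surface, with 104, 43, 50 and 27, Etv4, a target of Fgf signalling, with 56, 43, 53 and 21, and Fzd10, a Wnt receptor, with 80, 33, 81 and 40. In the other 5 lists the largest change was under 2-fold, with 60 and 38 at E17.5 and PN15 for Fgfr2, 50 and 33 for Smad9, 27 and 47 for Porcn, 57 and 104 for Map2k1, and 78 and 128 for Acvr2a.

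**Figure D5:**
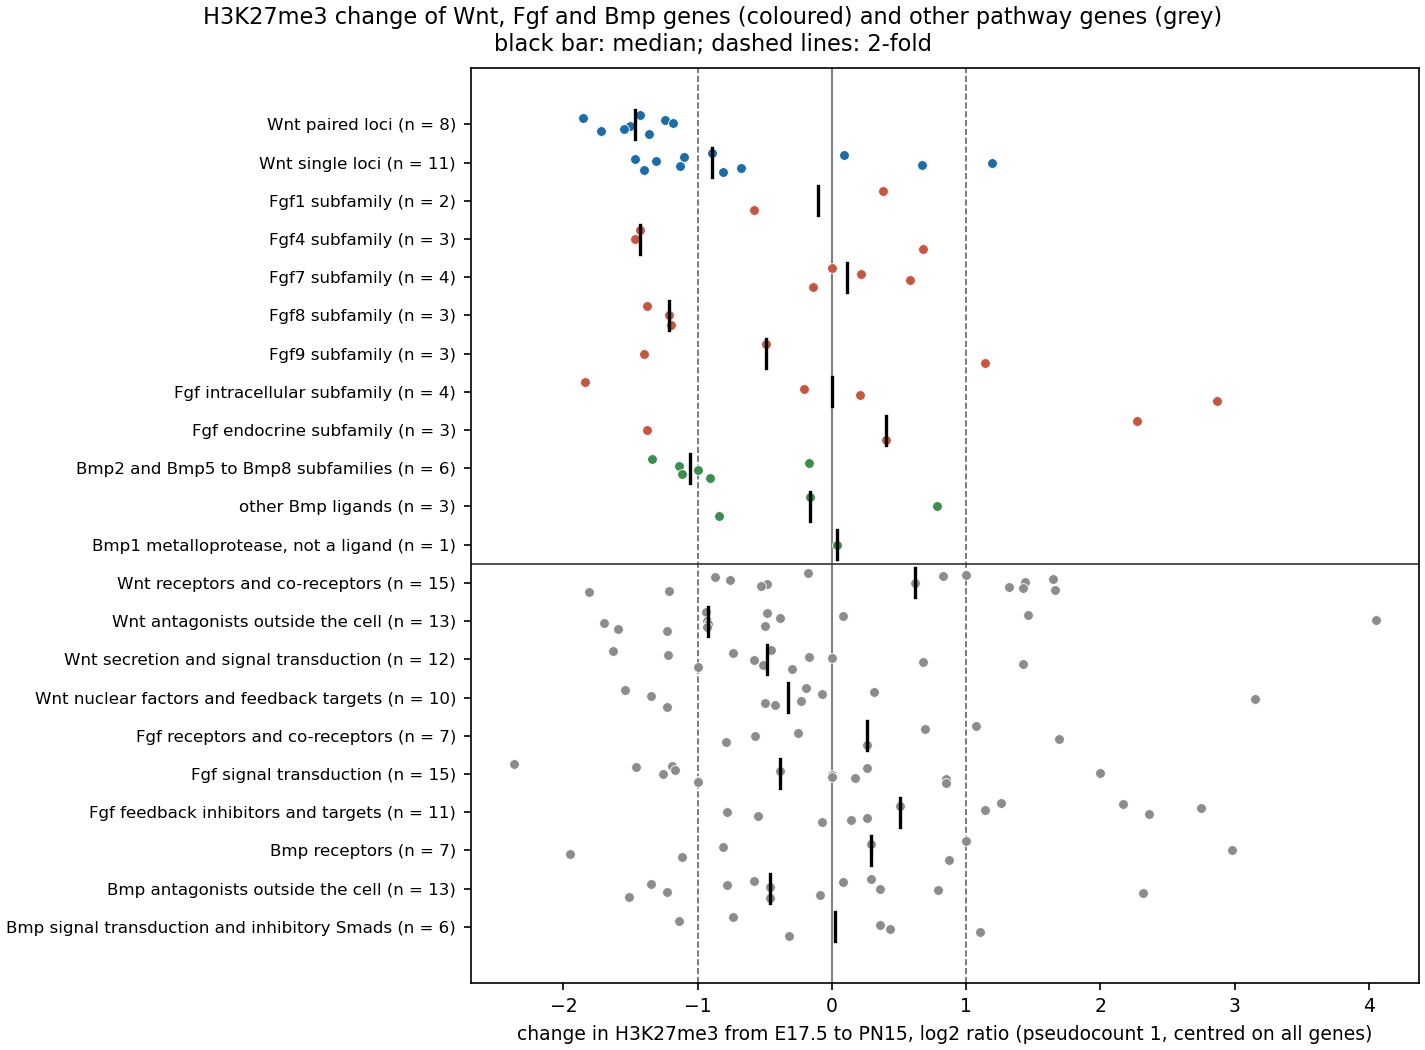
H3K27me3 at PN15 relative to E17.5 as a centred log2 ratio (x axis) for the members by group (coloured) and for the other pathway genes by list (grey), with 1 point per gene, black bars for medians and dashed lines at 2-fold. All 8 paired Wnt genes lie left of the line for 2-fold lower, with a median of −1.46, while the 15 Wnt receptors and co-receptors have a median of 0.62. On the same-sum scale these medians were −0.94 and 1.13. All 8 paired genes but only 9 of the 15 receptors had H3K27me3 above background in at least 1 stage. Fzd8, at the median of the 15, had 14 and 22 at E17.5 and PN15, under the limits.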

How the data were processed

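Whole retinas of mice, wild type by the study and Pde6b (rd1/rd1) by the strain label, were pooled by stage and used for ChIP-Seq with antibodies against H3K4me2 and H3K27me3, with 1 library per mark and stage. Reads were aligned to mm9, and the submitters' processing notes name Bowtie 0.12.4. By the study's methods, reads with several positions were removed and reads within 2.5 kb of each RefSeq TSS were normalized to the mapped reads of the library. The deposited values are a score, this normalized occupancy, which the authors gave as whole numbers, so they are neither raw counts nor coverage. The total reads of each library are not given in the files used here. Of 10 samples, 2 had no column in the table and were not analysed here.

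Symbols were compared without case, and an entry suffix was dropped. Background, change (pseudocount of 1, centred on the median of all symbols, limit of 2-fold) and counting intervals (95%, exact Poisson and exact conditional binomial) were computed with Python 3.11.15, numpy 2.4.6, pandas 2.3.3 and scipy 1.17.1, plots with matplotlib 3.10.9. The steps were tested on simulated data. Gene positions are those of GENCODE vM1 on mm9, with the start of the transcript that has a CCDS entry and the longest coding sequence. Of 37 members with a RefSeq promoter, 36 had it within 1 kb of this start, and the exception, Fgf14, has starts 485 kb apart.

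Values were given in full, per family, for the 2 members with the largest summed H3K27me3, the 2 with the largest summed H3K4me2, the 2 with the largest change in each direction and mark among those past 2-fold, and members whose entries differed in class, and for each pathway list for the gene with the largest change in each mark. The members, the lists and this rule were chosen with earlier results of these data known. Not every symbol of the name pattern is reported here. With 1 library per group no test was run. Alternatives were the 95th percentile or a fixed value of 30 as background, the mean over entries, a pseudocount of 5, no centring, libraries scaled to the same sum, and a filter at 10.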

Additional observations from a re-analysis of the deposited data

How the results depend on the processing

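Of 156 recomputed values, 124 stayed within 1.5 times the count, or within 0.25 on the log2 scale and 0.1 for correlations, 31 moved further and 1 changed sign. With a fixed occupancy of 30 as background, H3K4me2 was above background at 28, 14, 26 and 17 members in order of stage, and both marks at 11, 21 and 13 members at PN1, PN7 and PN15. With a pseudocount of 5, 1 member was at least 2-fold higher and 7 lower in H3K4me2 from E17.5 to PN15, and 14 pathway genes were lower in H3K27me3. The 1 member higher in H3K27me3 from E17.5 to PN1, Fgf14, was not called with a pseudocount of 5, with the mean over entries or with the filter at 10 (0 members each).

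The scaling of the libraries moved the most values, and which scaling is right was not tested. With the libraries scaled to the same sum, H3K27me3 was lower at 2 members from E17.5 to PN1. From PN1 to PN7 it was lower at 1, and the median change was 0.05 in place of −0.09. From PN7 to PN15 it was lower at 1 and higher at 2, with a median of −0.31. From E17.5 to PN15 it was lower at 4 and higher at 8, with a median of −0.38. Among members above background it was lower at 4 and higher at 4, with a median of −0.61. Of the pathway genes, 9 were lower, and of the members above background, 13 were highest at PN1. On the centred scale, 1 of the 30 members with a mean of at least 100 was higher (0.958% of 1357 symbols). Of these settings, that limit of 100, the same-sum scaling of the pathway genes and of the stage of the highest value, the change from PN1 to PN15 and the window at the outer end of the gene were chosen after seeing the data. No paired analysis was possible because each mark and stage has 1 library, and none could be left out. With no replicate, differences smaller than the counting intervals were not detectable. Larger ones cannot be told apart from the spread between animals and preparations, which was not measured.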
